A study of Mus musculus with 48 samples.

Results

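Nascent RNA of mouse embryonic stem cells carrying an shRNA against Chd4 was compared with that of cells carrying a scrambled shRNA. The comparison held 4 libraries, 2 of each kind, of 8 nascent RNA libraries and 48 samples in the series, and its libraries were chosen by the shRNA named in their column headers. They are called after those headers: Chd4 shRNA r1, Chd4 shRNA r4, scrambled r1 and scrambled r3. All came from TCF2.2, a stem cell line derived in 2i medium, the serum-free medium that holds stem cells in the naive state. The RNA samples carry the strain label C57BL/6, whereas the chromatin samples of the same line are labelled as a mixed strain. Both groups were transduced with lentivirus and kept for 24 h with puromycin at 1.5 µg/mL, so the scrambled cells shared the virus and the selection. Cells then took up 4-thiouridine at 500 µM for 5 min, and ERCC spike-in RNA was added in proportion to cell number. The other 4 nascent RNA libraries, of cells given the SWI/SNF inhibitor BRM014 at 10 µM or DMSO for 3 h, helped to estimate the spread and served for 1 comparison of effects. Samples of chromatin immunoprecipitation in the series were not analysed here.

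CHD4 is the ATPase of NuRD, a complex that joins nucleosome remodelling to histone deacetylation by HDAC1 and HDAC2. NuRD sits at enhancers and promoters of active genes in stem cells and is known for tempering pluripotency genes and for its part in the exit from self-renewal. RNA that has taken up 4-thiouridine is tied to biotin and pulled down on streptavidin beads, so its counts follow recent synthesis more than the stock of RNA. Reads from any unlabelled nucleic acid that stays on the beads are counted along with it. In bulk libraries such as these, fewer cells of a type and less RNA per cell cannot be told apart.

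The libraries labelled Chd4 shRNA were the shallower pair and the pair with more counts on silent genes. Gene counts came to 7461362 (r1) and 6982354 (r4) with Chd4 shRNA and to 12026026 (r1) and 11298835 (r3) with the scrambled shRNA, the order in which values are given throughout. Olfactory and vomeronasal receptor genes (Olfr, Vmn1r and Vmn2r, 1434 genes over 5330.3 kb of exon), which stem cells have no use for, had 6.78 and 7.21 counts per kb in the libraries labelled Chd4 shRNA. Scrambled r1 and r3 had 1.32 and 1.84, so the groups lay far apart, at 6.99 ± 0.303 against 1.58 ± 0.361 (SD, n = 2 each), a ratio of 4.43. The exact permutation p (two-sided) was 0.333, the smallest that 4 libraries in 2 groups allow. The BRM014 and DMSO libraries lay between 1.66 and 2.66, near the scrambled pair. Relative to the counts of expressed genes the ratio was 5.71, and relative to ERCC counts it was 9.69. The receptor level is used below as a background: scaled to all exons it made up 12.8% ± 1.15 of the gene counts in the libraries labelled Chd4 shRNA, against 1.79% ± 0.486 with the scrambled shRNA (SD, n = 2 each).

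The excess was found in silent genes of many kinds. Olfr genes had a ratio of 4.33, Vmn1r genes of 4.66 and Vmn2r genes of 4.59. The 533 receptor pseudogenes, which make no receptor at all, had 7.01 and 7.41 counts per kb against 1.35 and 1.90, a ratio of 4.45. The 90 keratins of skin and hair reached 5.43, the 64 defensins of gut and epithelium 5.08, the 509 antigen receptor segments of lymphocytes 5.28, the 53 taste and trace amine receptors 4.16 and the 87 prolactin and urinary protein genes 4.06. Receptor genes on the plus strand had a ratio of 4.21 and those on the minus strand 4.66. The receptor genes split by exonic length into 4 sets fell between 4.21 and 4.78. By chromosome the lowest ratio was 2.93, on chromosome 9, where the scrambled libraries had 2.37 and 2.97 counts per kb. No silent family tested here lacked the excess, and the libraries of the 2 groups did not overlap in any of them.

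Rows of repeated sequence showed what the excess looked like at high copy number. They were chosen after their values were seen. In 13 gene rows that lie in major satellite repeats, among them Gm10800 and Gm10801, the libraries labelled Chd4 shRNA had 207805 and 242602 counts and the scrambled 35349 and 56078, a ratio of 4.93. All 13 were called higher, with log2 fold changes of 2.67 to 2.87, while the receptor genes as a whole gave 2.65 on the same scale. Relative to the receptor genes, the satellite rows stood at 1874- and 2058-fold in the pair labelled Chd4 shRNA and at 1632- and 1868-fold in scrambled r1 and r3, with 1652 to 2044-fold in the other 4 libraries. The median expressed gene, in contrast, stood 6.82- and 6.45-fold over the receptor genes in the libraries labelled Chd4 shRNA and 49.5- and 35.2-fold in the scrambled. Satellite and receptor rows therefore kept their proportion to each other in all 8 libraries, and the expressed genes did not keep theirs.

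**Figure D1:**
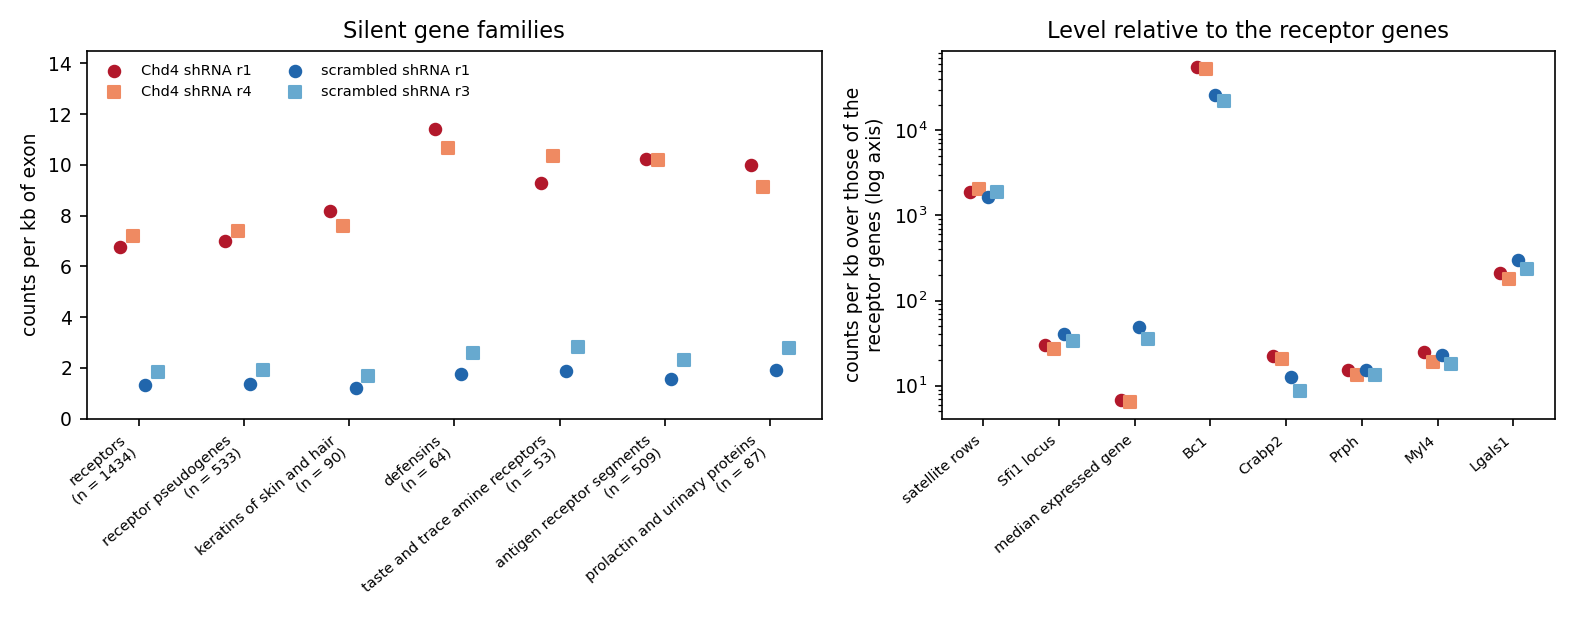
Left, counts per kb of exon (linear axis) of 7 families of silent genes in each library, with the number of genes in brackets. Right, counts per kb divided by those of the receptor genes in the same library (log axis) for repeat rows, the median expressed gene and 5 single genes: satellite rows lie between 1632 and 2058 in all 4 libraries, and the median expressed gene is at 6.82 and 6.45 in the libraries labelled Chd4 shRNA and above 35 in the scrambled.

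The chromosomes did not share the excess equally. Rows under 2-fold of the background on chromosome 6 stood at 1.34 and 1.38 times the autosomal median in the pair labelled Chd4 shRNA and at 1.11 and 1.19 times in scrambled r1 and r3. Those on chromosome 8 stood at 1.43 and 1.39 against 1.15 and 1.22. Those on the X chromosome stood at 0.570 and 0.589 against 0.710 and 0.679, below the autosomes in every library. For expressed genes the median log2 fold change was 0.12 on chromosome 6, 0.09 on chromosome 8 and -0.11 on the X chromosome, and 0.13, 0.11 and -0.10 with the background subtracted. Other measures differed between the groups as well. Rows holding ribosomal RNA sequence took 37.7% ± 1.83 of the gene counts in the libraries labelled Chd4 shRNA and 58.0% ± 2.48 in the scrambled (SD, n = 2 each). In BRM014 r1 and r2 they took 47.4% and 34.3%, and in DMSO r1 and r2 46.1% and 44.0%. Of all 8 libraries, BRM014 r2 had the lowest share, with 2.64 receptor counts per kb, and scrambled r1 the highest, with 1.32. The relation of this share to the receptor counts was not tested. The 86 scarce ERCC RNAs stood at 42.8 and 53.7 CPM (counts per 1000000, here of all gene counts) against 11.3 and 12.7. The part of these differences in the results that follow was not tested.

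Scaled by ERCC counts, most tested genes read as higher. Gene counts per ERCC count were 209 and 309 with Chd4 shRNA and 193 and 193 with the scrambled shRNA, at 259 ± 70.7 against 193 ± 0.345 (SD, n = 2 each, exact permutation p 0.333). Expressed genes without ribosomal RNA rows and with the background subtracted gave 89.7 and 136 against 66.5 and 72.8, a ratio of 1.62. The groups did not overlap in either measure, but Chd4 shRNA r1 and r4 differed from each other by more than r1 differed from the scrambled libraries. The test across genes used TMM-scaled ERCC totals, on which the summed gene counts had a ratio of 1.01 and the groups overlapped (exact permutation p 1). Of 35426 genes tested on that scale with edgeR's quasi-likelihood test and Benjamini-Hochberg adjustment, 21666 were higher (61.2%) and 68 lower (0.192%), 61.4% in all. Of the 16474 rows under 2-fold of the background, 97.4% were called higher, and they made up 74.1% of all higher calls. At 3- to 10-fold of the background 33.5% of 7447 rows were higher, and at 10-fold and more 281 of 8017. Rows near the background were picked by their closeness to the receptor genes, whose rise was already known. The share of higher calls among them is therefore no separate result. Plain ERCC sums gave 29159 higher and 79 lower of all tested genes. The 86 scarce ERCC RNAs had 319 and 375 counts against 136 and 144, so TMM-scaled totals, which include them, rest partly on few counts. Relative library sizes of Chd4 shRNA r1 and r4 were 0.606 and 0.506 by TMM-scaled totals and 0.456 and 0.289 by plain sums. How many well expressed genes read as higher depended on the ERCC scale: fitted on their own, 57 of the 8272 expressed genes were higher with TMM-scaled totals, 1414 with TMM over the 6 abundant ERCC RNAs, 2811 with the sum of the 3 most abundant and 2836 with plain sums.

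**Figure D2:**
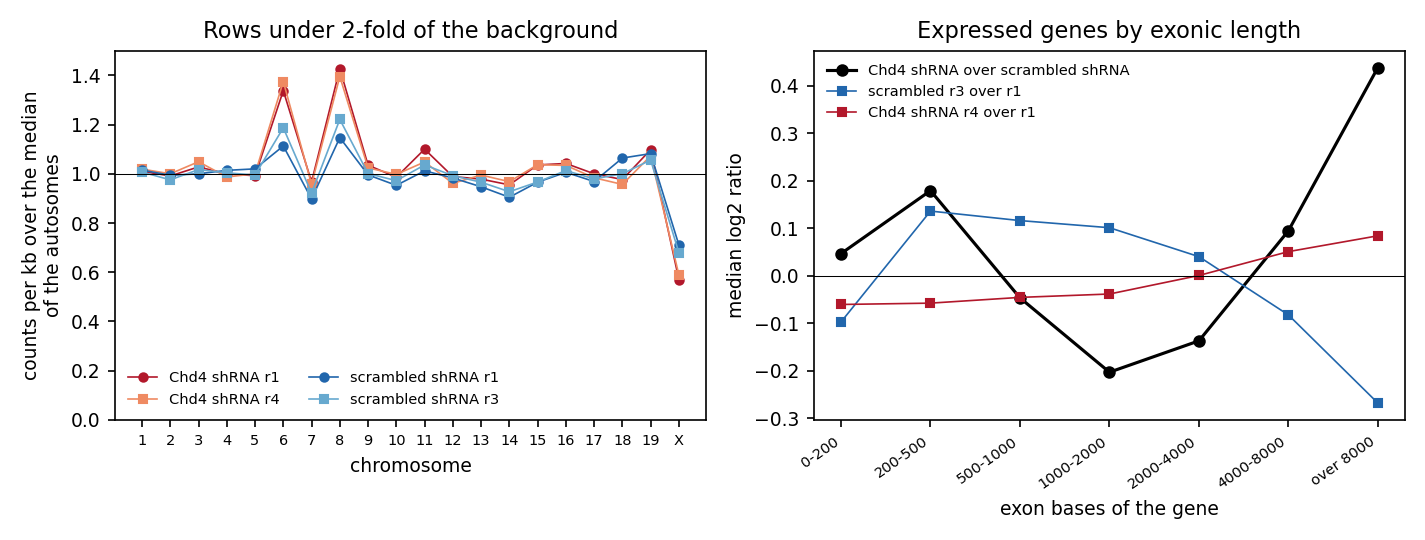
Left, counts per kb of the rows under 2-fold of the background on each chromosome, over the median of the autosomes in the same library: chromosomes 6 and 8 stand out upward (to 1.43) and the X chromosome downward (to 0.570) most in the libraries labelled Chd4 shRNA. Right, median log2 ratio of expressed genes by exonic length for Chd4 shRNA over scrambled and for the replicates of each group: genes over 8000 bases reach 0.44.

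For the genes themselves the 8272 expressed genes were used, those with an average count in the 8 libraries of 10-fold the background or more. Each value below is a log2 fold change against the typical expressed gene ± SE (n = 2 against 2), and genes are called higher or lower at an adjusted p under 0.05. Levels are counts per 1000000 of expressed genes (CPM). With Chd4 shRNA 1607 genes were higher (19.4%) and 1694 lower (20.5%), 39.9% in all, with a median of -0.01 over all. These shares are the background against which the counts of each list below are to be read. Changes of at least 2-fold numbered 326 and 282, that is 3.94% and 3.41% (7.35% in all). The groups did not overlap in 72.9% of the expressed genes. The typical call was modest, with a median fold of 1.597 for higher genes and 0.633 for lower ones. Replicates differed by a median of 0.143 (log2) between the libraries labelled Chd4 shRNA and 0.165 between the scrambled. Calls that also held with each of the 4 libraries left out in turn numbered 764 and 772. Subtracting the background gave 1714 higher (20.7%) and 1623 lower (19.6%), 40.3% in all, of which 2756 had the same call before subtraction. With TMM-scaled ERCC totals 57 expressed genes were higher and 6 lower. Among the 17664 genes 3-fold above the background 22.3% were higher and 22.8% lower, 45.0% in all. The scale decides what counts as no change: the median expressed gene stood at 0.19 with TMM-scaled ERCC totals, at 0.59 with plain ERCC sums and at -1.34 when all tested genes, background included, set it.

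**Figure D3:**
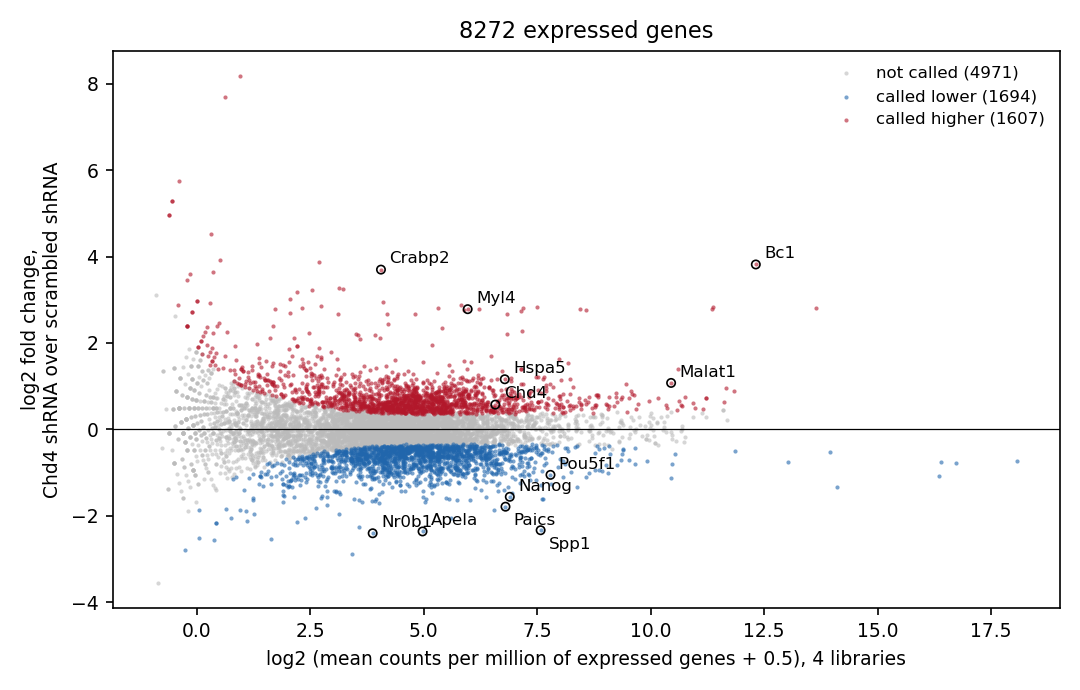
Log2 fold change, Chd4 shRNA over scrambled, against the mean level of the 8272 expressed genes (log2 of CPM + 0.5, 4 libraries), with called genes in colour: 1607 lie above and 1694 below the line, and Bc1 and Crabp2 are the highest of the labelled genes.

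Chd4, the gene targeted (chromosome 6, 125095981 to 125130591, mm10, plus strand), was not lower relative to the typical expressed gene in the libraries labelled with its shRNA. It had 730 and 760 counts with Chd4 shRNA and 806 and 618 with the scrambled shRNA, or 111 and 117 CPM against 86.5 and 66.5. Its log2 fold change was 0.57 ± 0.16 (edgeR's quasi-likelihood test, Benjamini-Hochberg adjusted p 0.00532), 0.72 with the background subtracted, and 0.39 (adjusted p 0.125) without scrambled r3. Among the genes 3-fold above the background it was 0.19 (adjusted p 0.326), and on the ERCC scales it ran from 0.78 (adjusted p 0.796, TMM-scaled totals) to 1.25 (adjusted p 0.0024). Where all tested genes set the scale it was called lower, at -0.77 (adjusted p 0.000146), beside -1.34 for the median expressed gene. Chd4 has 8019 bases of exon, and the 440 expressed genes over 8000 bases had a median of 0.44 on the scale of expressed genes. A row with equal counts in both groups stood at 0.51 there. The part of length in the value of Chd4 was not tested. The stock of Chd4 RNA and the protein were not measured, so the groups are named below by their labels.

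Among the other subunits of NuRD, the deacetylase gene Hdac2 and the scaffold genes Mta2 and Rbbp7 were lower. Of 11 expressed NuRD genes, Chd4 itself included, 2 were higher (Chd4 and Gatad2a) and 6 lower, with a list median of -0.35. Hdac2 was at 22.1 and 26.4 CPM against 51.5 and 55.5, a log2 fold change of -1.14 ± 0.15 (adjusted p 4.41e-06). Mta2 stood at -0.58 ± 0.14 and held with each library left out. Rbbp7 stood at -0.52 ± 0.14, but at -0.38 (adjusted p 0.127) without Chd4 shRNA r1. Gatad2a, which bridges CHD4 to the deacetylase core, was at 0.53 ± 0.14, and at 0.47 (adjusted p 0.0561) without scrambled r3. Hdac2 and Mta2 were the 2 of the 6 lower subunits that held with every library left out. With plain ERCC sums Mta2 and Rbbp7 turned to 0.02 and 0.11.

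Naive pluripotency genes, which mark the ground state of stem cells, were lower as a group. Of 16 expressed, 0 were higher and 11 lower with a median of -0.85, beside 20.5% lower among all expressed genes. After subtraction 10 were lower, and 8 were lower with every library left out. Nanog, the homeobox gene of self-renewal, had 59.0 and 61.1 CPM against 169 and 186, a log2 fold change of -1.56 ± 0.15 (adjusted p 2.47e-08). Nr0b1, a repressor that binds OCT4, was at 4.25 and 4.76 CPM against 22.01 and 25.8 (-2.41 ± 0.18). In counts Nr0b1 fell from 205 and 240 to 28 and 31, which is 2.28- and 2.38-fold over the receptor genes. Zfp42 (REX1) was at 33.2 and 36.0 against 72.2 and 72.7 CPM, at -1.07 ± 0.14, and Klf2 at 20.9 and 20.3 against 39.6 and 39.8, at -0.95 ± 0.15. The groups were apart in all 4 of these genes. Esrrb, an orphan nuclear receptor gene of the same circuit, had 106 and 120 against 150 and 140 CPM and missed the threshold (-0.36 ± 0.15, adjusted p 0.0580), and Tbx3 was at -0.01 ± 0.15.

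The core factors shared by naive and primed cells went both ways, with Pou5f1 and Sox2 lower. Of 10 expressed core genes 3 were higher and 6 lower, with a median of -0.73, beside 19.4% higher and 20.5% lower among all expressed genes. Pou5f1 (OCT4) was at 145 and 143 CPM against 287 and 311, a log2 fold change of -1.05 ± 0.14 (adjusted p 4.31e-06). Its partner Sox2 was at 22.4 and 30.7 against 45.2 and 64.0 CPM (-1.04 ± 0.18), and the groups did not overlap. Trim28, the corepressor of retroviral repeats, fell to 0.505 of the scrambled level (-0.99 ± 0.14). The 3 higher core genes rested on single libraries: L1td1 (0.48 ± 0.14) had an adjusted p of 0.0876 with Chd4 shRNA r4 left out and of 0.140 with scrambled r3 left out, Rif1 (0.51 ± 0.15) 0.0939 and 0.232 without the same libraries, and Zfp281 (0.58 ± 0.18) 0.165 without Chd4 shRNA r1 and 0.138 without scrambled r3. Etv5 was the one gene of the formative and primed list in the expressed set. The primed markers Fgf5, Otx2 and Pou3f1 had at most 54 counts in any of the 4 libraries and did not enter it.

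Secreted signals that stem cells send to themselves were among the lower genes. Fgf4, the growth factor that drives exit from the naive state, was at 53.7 and 52.5 CPM against 146 and 142 (-1.44 ± 0.15, adjusted p 9.86e-08), while the receptor gene Fgfr1 was higher, at 54.9 and 51.5 against 27.8 and 26.1 (0.98 ± 0.15). The ERK target Etv5 stood at -0.82 ± 0.15. Nodal was at 6.98 and 7.99 against 19.3 and 19.8 CPM (-1.39 ± 0.17), and Tdgf1, its co-receptor, at 41.6 and 39.3 against 134 and 160 (-1.87 ± 0.15). Ligand and co-receptor of Nodal were thus both lower, with no overlap between the groups. Of 6 expressed genes of the LIF pathway 1 was higher and 4 lower: the targets Pim3 (-1.42 ± 0.16), Socs3 (-1.28 ± 0.17) and Pim1 (-1.04 ± 0.17) fell, and Stat3, the transcription factor of the pathway, was at 43.2 and 43.9 CPM against 28.1 and 25.8 (0.69 ± 0.15, adjusted p 5.70e-04). Stat3 and Fgfr1 turned to -0.64 and -0.36 where all tested genes set the scale.

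Markers of other cell types were compared on both scales, since the background differed between the groups. The 10 stem cell markers were all expressed, 8 of them lower, and summed to 3512 and 3471 against 6262 and 6397 CPM, or 54.3- and 48.7-fold the background against 615- and 469-fold. The 8 neural markers summed to 183 and 189 against 93.3 and 97.2 CPM, which was 1.56- and 1.46-fold the background against 5.06- and 3.93-fold. Stmn2, a neural marker outside these 8, was lower, with 401 and 459 counts against 1350 and 1744 (-1.34 ± 0.15). In the scrambled libraries it exceeded these 8 markers together (389 and 419 counts), so the direction of the neural sum depends on the markers taken. The 11 trophoblast markers came to 154 and 143 against 48.0 and 55.0 CPM (1.87- and 1.58-fold against 3.72- and 3.18-fold). For all 6 other types the sum of the markers chosen was thus higher in CPM in both libraries labelled Chd4 shRNA. Over the background it was lower in all but the blood markers. The median expressed gene was lower over it too, at 6.82- and 6.45-fold against 49.5- and 35.2-fold. The direction on this scale is thus not particular to the markers. The 7 mesendoderm markers gave 56.6 and 54.9 against 20.9 and 23.9 CPM (1.27- and 1.12-fold against 2.97- and 2.54-fold), and the 7 primitive endoderm markers 90.5 and 92.9 against 18.5 and 21.3 (1.17- and 1.09-fold against 1.52- and 1.31-fold). The 5 blood markers gave 47.3 and 57.1 against 11.03 and 9.97 CPM (0.922- and 1.01-fold against 1.37- and 0.922-fold), where the groups overlapped over the background. The 11 fibroblast and feeder markers were the most abundant, at 890 and 943 against 706 and 571 CPM (6.49- and 6.23-fold against 32.7- and 19.7-fold). No marker was at 0 in the libraries labelled Chd4 shRNA, where the background was higher, while Hand1, Mesp1, S100a4 and Hbb-bs were at 0 in scrambled r1, and Mesp1 also in scrambled r3. The part of such cells in the results was not tested. Krt18, a keratin of simple epithelia, was the 1 of the 11 trophoblast markers called higher, at 13.1 and 11.4 CPM against 3.87 and 3.98 (1.64 ± 0.20, adjusted p 9.15e-07). Over the background it was lower, at 7.96-fold against 16.1-fold. Outside the 11, the trophoblast genes Rhox6 (0.65 ± 0.24) and Tfap2c (-0.69 ± 0.18) were called higher and lower, and neither held with every library left out.

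The 15 largest rises were led by Bc1, a short RNA of Pol III known from neurons (chromosome 7, 144914470 to 144914637, plus strand). It had 9436 and 9617 CPM against 616 and 737, a 14.1-fold difference (3.82 ± 0.21, adjusted p 2.56e-12). Crabp2, which carries retinoic acid to its receptor (chromosome 3, 87948666 to 87953376), was at 30.2 and 29.96 CPM against 2.36 and 2.26, or 13.0-fold (3.70 ± 0.18, adjusted p 8.19e-13). These were the 2 genes of the 15 that rose well beyond the receptor genes: relative to them Bc1 stood 54617- and 51706-fold against 25784- and 22230-fold, and Crabp2 22.2- and 20.5-fold against 12.6- and 8.66-fold. In the BRM014 and DMSO libraries Crabp2 stood at 20.2- to 25.1-fold, so on this measure the scrambled pair was the low one.

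The rises of Myl4 and Prph were close to that of the silent genes. Myl4, an atrial and embryonic myosin light chain (chromosome 11, 104550663 to 104595753), was at 120 and 97.4 CPM against 15.2 and 16.4 (2.78 ± 0.15). Prph, the neuronal intermediate filament peripherin (chromosome 15, 99055174 to 99058978), was at 31.6 and 29.8 against 4.29 and 5.27 (2.68 ± 0.17). Both fold changes lie at the 2.65 of the receptor genes. Relative to the receptor genes, Myl4 stood 25.1- and 18.97-fold in the libraries labelled Chd4 shRNA and 23.1- and 17.9-fold in the scrambled, and Prph 15.4- and 13.5-fold against 15.1- and 13.4-fold, with overlap between the groups in both. The BRM014 and DMSO libraries had Myl4 at 9.89- to 11.6-fold. Of the 1607 higher genes, 41 had a ratio of counts at or above that of the receptors, and 7 more had no scrambled count. The part of the background in these rises was not tested.

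The other rises lay below that ratio. Dqx1, a helicase-like gene, was at 2.36 ± 0.18, and Lgals1 (galectin 1) at 194 and 178 CPM against 38.8 and 41.9 (2.21 ± 0.14). Gtsf1 of the piRNA pathway (2.19 ± 0.19), the phospholipase gene Pla2g1b (2.10 ± 0.18), the imprinted noncoding gene Meg3 (1.69 ± 0.15), the prolyl isomerase gene Fkbp11 (1.61 ± 0.16), Rlim, an E3 ligase of X inactivation (1.59 ± 0.16), the adhesion receptor gene Adgrl1 (1.55 ± 0.16) and Gfod2 (1.50 ± 0.14) followed, and each held its call with every library left out. Some counts may not be a gene's own. Sfi1 (2.27 ± 0.14) overlaps Drg1 on the same strand, and 5 rows of its repeated locus on chromosome 11 rose together by 2.21 to 2.68. The row of Snora81 (2.10 ± 0.17), a guide RNA of ribosomal RNA modification, lies in Eif4a2, which had 1028 and 1023 counts against 2124 and 2167. Gm49346, on the same strand, shares most of its own span with Snora81 and rose with it, from 46 and 53 counts to 161 and 154, so the reads of both cannot be told apart. Where all tested genes set the scale, every rise under 1.34 turned negative.

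**Figure D4:**
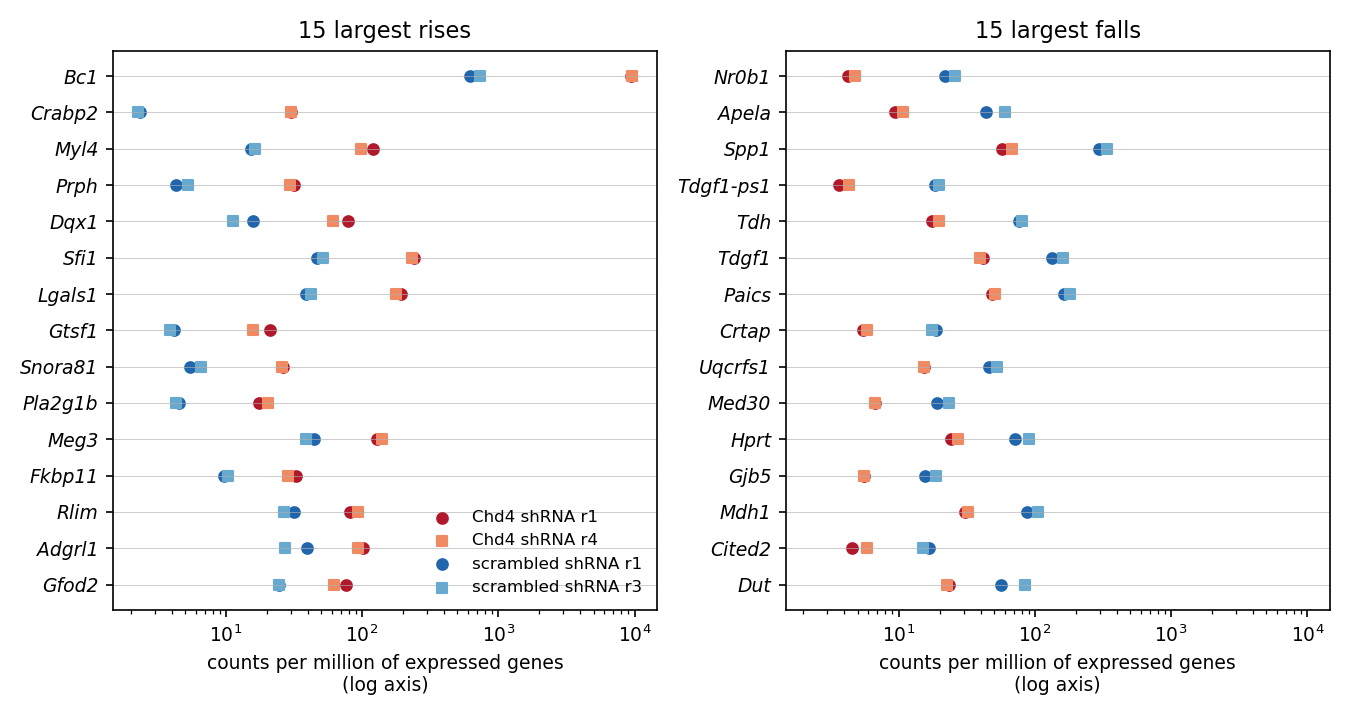
CPM of expressed genes in each library (log axis) for the 15 largest rises, left, and the 15 largest falls, right, with Bc1 highest at 9436 and 9617 against 616 and 737. In all 30 genes both Chd4 shRNA points lie on the same side of both scrambled points, which was a condition of their choice.

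The 15 largest falls held secreted factors, enzymes and regulators. Spp1, the secreted protein osteopontin (chromosome 5, 104435118 to 104441050), was at 57.5 and 68.5 CPM against 296 and 340, a fall to 0.198 of the scrambled level (-2.34 ± 0.16, adjusted p 4.55e-11), and Gm42793, which lies within it on the same strand, fell with it from 203 and 246 counts to 41 and 56. Apela, a peptide hormone of early embryos, was at 9.41 and 10.8 against 43.8 and 60.0 (-2.36 ± 0.18). It shares its strand with Gm45886, which fell from 136 and 200 counts to 14 and 18, so the reads of both cannot be told apart. Tdgf1-ps1 (-2.26 ± 0.19) is a copy of Tdgf1, and reads may be split between them. Uqcrfs1, the Rieske protein of respiratory complex III (-1.67 ± 0.16), the Mediator gene Med30 (-1.66 ± 0.18), the connexin gene Gjb5 (-1.63 ± 0.20), Crtap (-1.68 ± 0.18) and the coactivator gene Cited2 (-1.62 ± 0.19) also fell. Cited2, with 30 and 38 counts against 156 and 141, ended 1.80- and 2.15-fold over the receptor genes. All 15 falls kept their sign on each ERCC scale tried and where all tested genes set the scale. The ERCC scales moved the typical gene up by less than these falls, and the other scale moved it down. No fall could thus turn its sign, and with TMM-scaled ERCC totals 6 expressed genes in all were called lower.

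Genes of nucleotide synthesis, of one-carbon metabolism and of the TCA cycle stood lower on balance. Of 25 expressed genes of purine and pyrimidine synthesis 0 were higher and 16 lower, with a median of -0.47. Paics, which joins steps of the purine pathway, was at 48.4 and 51.3 CPM against 164 and 182 (-1.79 ± 0.15, adjusted p 2.08e-09). Hprt of purine salvage was at 24.1 and 27.5 against 71.1 and 89.9 (-1.64 ± 0.15), the dUTPase gene Dut at -1.62 ± 0.17 and the ribonucleotide reductase gene Rrm2 at -1.21 ± 0.15. Of 16 genes of threonine, glycine and one-carbon metabolism 0 were higher and 12 lower. Tdh, the threonine dehydrogenase that mouse stem cells rely on, was at 17.6 and 20.0 CPM against 76.0 and 80.0 (-2.05 ± 0.15), though Gm17232 on its opposite strand also fell, from 87 and 79 counts to 18 and 15. Its partner Gcat in the same pathway stood at -0.90 ± 0.16, and Ahcy of the methyl cycle at -1.27 ± 0.14. Of 25 genes of the TCA cycle and malate shuttle 1 was higher and 14 lower, with Mdh1 at 30.6 and 32.3 against 88.0 and 106 CPM (-1.63 ± 0.15) and the fumarase gene Fh1 at -1.25 ± 0.14. With every library left out, 9, 8 and 7 genes of these 3 lists were still lower. The respiratory chain did not share this balance, with 23 genes higher and 16 lower of 78, which turned to 8 and 26 of 80 among genes 3-fold above the background.

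Genes of sterol synthesis, of the proteasome and of the TRiC chaperonin were lower as well. Of 23 expressed genes of sterol and lipid synthesis 0 were higher and 12 lower, 10 with every library left out, with a median of -0.36. Pmvk (-0.97 ± 0.14), Cyp51 (-0.95 ± 0.16), Msmo1 (-0.92 ± 0.14) and Mvd (-0.88 ± 0.14) encode enzymes from mevalonate to cholesterol. Of 35 proteasome subunit genes 1 was higher and 19 lower (9 with every library left out), with Psma4 at 53.7 and 56.7 CPM against 116 and 139 (-1.21 ± 0.14) and Psma5 at -1.02 ± 0.15, whereas Psmb10 of the immunoproteasome was higher (0.95 ± 0.15). Of 17 heat shock and chaperone genes 1 was higher and 9 lower, and the 4 smallest p belonged to subunits of the TRiC chaperonin, which folds actin and tubulin: Cct5 (-1.03 ± 0.14), Cct4 (-1.01 ± 0.14), Cct7 (-0.87 ± 0.14) and Tcp1 (-0.85 ± 0.14). Genes of the cytosolic ribosome did not move one way, with 23 higher and 12 lower of 90, which became 39 and 7 with the background subtracted and 5 and 31 of 91 among genes 3-fold above the background.

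Genes of DNA replication were lower and those of mitosis were split. Of 29 expressed G1/S and replication genes 3 were higher and 17 lower, 15 of them with every library left out, with a median of -0.64. Pcna, the sliding clamp, was at 63.4 and 67.6 CPM against 167 and 194 (-1.47 ± 0.14, adjusted p 3.94e-08). Ccnd3 (-1.04 ± 0.14), the clamp loader gene Rfc4 (-0.99 ± 0.14) and the helicase gene Mcm5 (-0.85 ± 0.14) followed. Of 26 G2/M genes 8 were higher and 10 lower. Of 67 replication-dependent histone genes 4 were higher and 25 lower, beside 20.5% lower among all expressed genes, but 8 were lower with every library left out, with the linker histone genes Hist1h1c and Hist1h1b at -1.08 ± 0.18 and -0.96 ± 0.17. The testis variant Hist1h2aa went the other way, with 55 and 35 counts against 22 and 19 (1.64 ± 0.26).

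The unfolded protein response of the endoplasmic reticulum held higher and no lower genes, while targets of ATF4 were lower. The response rests on chaperones whose promoters hold an endoplasmic reticulum stress element, bound by ATF6 and NF-Y. Of 14 expressed genes of the response 8 were higher and 0 lower (9 and 0 with the background subtracted, 6 and 0 with every library left out), with a median of 0.53 beside 19.4% higher among all expressed genes. Hspa5 (BiP), the main chaperone of the compartment, was at 144 and 160 CPM against 65.9 and 70.1 (1.16 ± 0.15, adjusted p 2.29e-06). Hsp90b1 (GRP94) was at 152 and 177 against 80.6 and 71.1 (1.12 ± 0.15). The groups were apart in both. Where all tested genes set the scale they stood at -0.18 and -0.22, and among genes 3-fold above the background 7 of 17 in the list were higher and 2 lower. Ddit3, a transcription factor induced by stress, was at 0.97 ± 0.15 and Herpud1, of protein degradation at the compartment, at 0.94 ± 0.15. Xbp1, which encodes another factor of the response, stood at 22.6 and 24.9 CPM against 25.02 and 26.02 (-0.10 ± 0.15) and was not called. Of 16 ATF4 target genes 1 was higher and 10 lower, with the asparagine synthetase gene Asns at 124 and 140 against 311 and 320 CPM (-1.26 ± 0.14, adjusted p 5.12e-07), the arginine transporter gene Slc7a3 at -1.03 ± 0.15, Ddit4 at -1.03 ± 0.14 and Atf4 itself at -0.68 ± 0.14. Nupr1 was the higher one (0.75 ± 0.14).

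Some promoters of the unfolded protein response genes held the stress element and others did not. RefSeq windows of 300 bases (250 before the start and 50 after it, GRCm38.p6) carried the symbol of 4529 of the 8272 expressed genes, and the 4521 on the same chromosome as the gene were used. The full element, CCAAT and CCACG with 9 bases of any kind between them, on either strand, was added to the search after the values were seen. It occurred in 0.130% of all 27025 windows, in 9 of the 4521 (0.199%), in 7 of 956 windows of higher genes (0.732%) and in 0 of 1017 of lower genes. These 7 were Hspa5, Hsp90b1 with 2 matches, Dnajc3, Calr, Creld2, Hnrnpa3 and 1700122E12Rik, whose start lies beside that of Calr. Canx and Pdia6, at 0.25 and -0.18, held a match and were not called. Of the 14 expressed response genes 13 had a window and 6 held the element, 4 of the 7 higher ones and 2 of the 6 not called. Ddit3, Herpud1 and Pdia4 were higher without it. In 4 windows, 5′ to 3′ on the strand of the gene, capitals mark the element as it reads on that strand.
Hspa5, chr2:34771840-34772139, plus strand: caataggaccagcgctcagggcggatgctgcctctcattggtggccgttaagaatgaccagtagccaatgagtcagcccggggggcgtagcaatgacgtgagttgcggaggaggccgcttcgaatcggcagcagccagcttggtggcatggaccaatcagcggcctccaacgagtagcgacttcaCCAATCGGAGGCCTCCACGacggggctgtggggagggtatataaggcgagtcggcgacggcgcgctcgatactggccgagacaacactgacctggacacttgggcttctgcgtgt
Hsp90b1, chr10:86705395-86705694, minus strand: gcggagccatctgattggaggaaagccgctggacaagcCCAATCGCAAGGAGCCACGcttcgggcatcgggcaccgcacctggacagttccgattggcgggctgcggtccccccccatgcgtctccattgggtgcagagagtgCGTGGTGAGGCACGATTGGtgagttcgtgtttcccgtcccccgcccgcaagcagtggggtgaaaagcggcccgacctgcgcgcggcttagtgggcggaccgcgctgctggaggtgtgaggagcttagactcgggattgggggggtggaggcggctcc
Calr, chr8:84846882-84847181, minus strand: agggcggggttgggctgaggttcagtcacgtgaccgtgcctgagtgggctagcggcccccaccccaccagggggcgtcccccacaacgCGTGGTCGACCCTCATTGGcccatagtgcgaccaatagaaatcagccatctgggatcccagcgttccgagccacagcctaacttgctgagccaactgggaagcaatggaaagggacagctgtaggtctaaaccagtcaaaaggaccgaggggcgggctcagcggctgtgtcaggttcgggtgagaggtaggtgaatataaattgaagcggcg
Creld2, chr15:88819396-88819695, plus strand: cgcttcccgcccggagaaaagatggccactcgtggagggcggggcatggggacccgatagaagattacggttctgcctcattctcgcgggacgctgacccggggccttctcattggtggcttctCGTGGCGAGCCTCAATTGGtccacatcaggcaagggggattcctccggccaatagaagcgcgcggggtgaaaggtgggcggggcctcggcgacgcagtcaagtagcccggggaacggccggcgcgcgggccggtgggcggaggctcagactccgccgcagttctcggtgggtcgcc

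In Hspa5 the match starts 65 bases before the start site. In Hsp90b1 the element stands once on each strand, at 212 and 107 bases before it. Calr and Creld2 hold it on the opposite strand. Calr (275 and 313 CPM against 199 and 184, 0.62 ± 0.15, adjusted p 0.00161) and Dnajc3 (23.4 and 27.8 against 12.5 and 11.8, 1.07 ± 0.18) held their call with every library left out. Creld2 (0.52 ± 0.14) was at 0.44 (adjusted p 0.0570) without scrambled r3, and the calls for Hnrnpa3 (0.43 ± 0.15) and 1700122E12Rik (1.19 ± 0.35) each ended in 2 of the 4 such fits. Among shorter motifs, searched on both strands, the octamer ATGCAAAT of OCT4 was in 1.05% of windows of higher genes and 1.28% of lower genes, against 1.28% of all expressed genes, and CATTGT, a core of SOX sites, was in 5.44% and 8.06% against 6.72%. The 5-letter CCAAT box, which the element contains, was in 40.8% and 44.9% against 42.7%. These matches describe letters in a window and not sites in use.

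Chromatin remodelling genes other than NuRD stood higher on balance, and they are long. Of 14 expressed SWI/SNF genes 7 were higher and 1 lower, with a median of 0.29. Arid1a, a subunit that targets the complex, was at 95.6 and 94.3 CPM against 57.2 and 45.4 (0.89 ± 0.15, adjusted p 5.71e-05), followed by Smarcc1 (0.80 ± 0.14), Phf10 (0.72 ± 0.14) and Brd7 (0.67 ± 0.15). Actl6a, an actin-like subunit also found in other complexes, was lower (-0.99 ± 0.14). Of 5 other remodelling ATPases 4 were higher and 0 lower, with Ep400 at 0.83 ± 0.15, Chd2 at 0.82 ± 0.16 and Smarca5 (ISWI) at 0.80 ± 0.14. Ep400 and Cabin1 (0.87 ± 0.15), which deposit or bind H2A.Z and H3.3, were higher, whereas H2afz, which encodes H2A.Z, fell from 485 and 579 to 266 and 264 CPM (-1.01 ± 0.16). The genes for H3.3 parted, H3f3b to 0.79 ± 0.15 and H3f3a to -0.75 ± 0.14. For pausing and elongation by Pol II, 9 of 22 genes were higher and 2 lower. Polr2a, which encodes the largest subunit of Pol II, stood at 189 and 207 CPM against 107 and 83.2 (1.06 ± 0.16). Aff4 (1.13 ± 0.16) and Supt6 (1.13 ± 0.15) were higher too, with Ssrp1 of FACT at -0.66 ± 0.14. Among genes 3-fold above the background, SWI/SNF gave 6 higher and 3 lower of 21, the other ATPases 10 and 0 of 13, and elongation turned to 6 and 11 of 26. Where all tested genes set the scale, every rise in these lists was negative.

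Length moved with those rises. Of 440 expressed genes with over 8000 bases of exon 55.5% were higher and 5.45% lower, with a median of 0.44 (0.42 with the background subtracted), against -0.20 for the 1208 genes of 1000 to 2000 bases. The median of the long genes was 0.30 without scrambled r3 and 0.61 without scrambled r1, since the scrambled libraries themselves differed by -0.27 (r3 over r1) in these genes, and Chd4 shRNA r4 over r1 by 0.08. With BRM014 it was -0.02. Of the 7 higher SWI/SNF genes 6 had over 4000 bases of exon, as did all 4 higher remodelling ATPase genes and 7 of the 9 higher elongation genes. Hells, the remodelling ATPase gene not called (0.17), is long as well, at 7205 bases. Among all 8272 expressed genes 1751 had 4000 to 8000 bases, of which 25.8% were higher, beside the 440 over 8000. None of the 11 lower naive genes was that long. The part of length in these results was not tested.

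**Figure D5:**
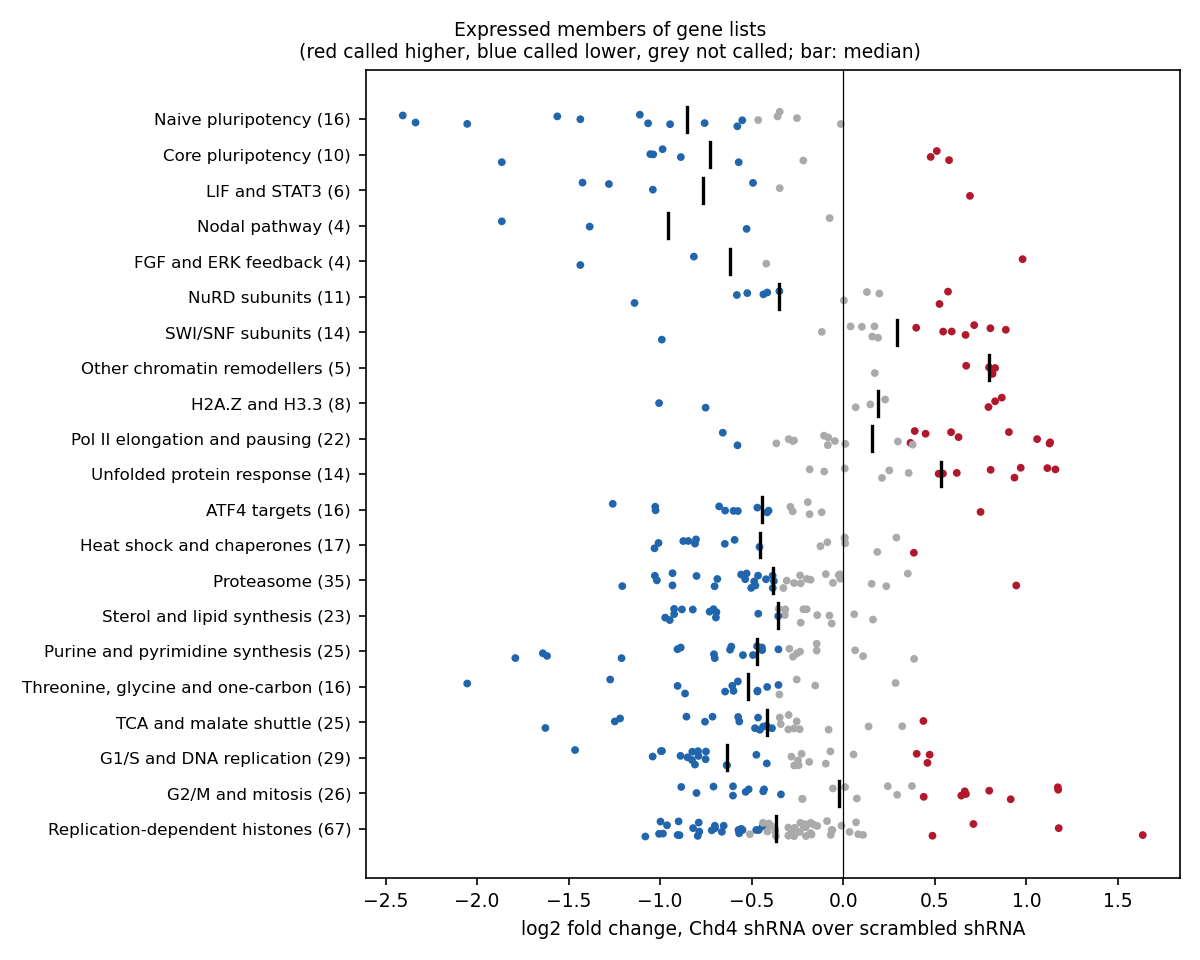
Log2 fold change, Chd4 shRNA over scrambled, of the expressed members of 21 gene lists, with the number of members in brackets and the list median as a bar. Naive pluripotency (median -0.85) and DNA replication (-0.64) lie to the left, and the unfolded protein response (0.53) and other remodellers (0.80) to the right.

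Noncoding RNAs of Pol III and of the nucleus, taken as 1 list, were higher on balance. Of 12 expressed RNAs of the list 5 were higher and 1 lower, with a median of 0.44. Of the higher ones, Rny3 and Rpph1 did not hold with every library left out. Rn7s1 and Rn7s2, both at 0.44 and not called, had nearly the same counts, so their reads cannot be told apart. Neat1, the scaffold of paraspeckles, was at 143 and 158 CPM against 68.5 and 49.5 (1.35 ± 0.15, adjusted p 3.82e-07). Malat1 of nuclear speckles was at 1783 and 2012 against 1115 and 688 (1.07 ± 0.19), where scrambled r3 was the low library and the groups stayed apart. The retinoid list had 3 expressed genes, of which Crabp2 and Crabp1 (0.94 ± 0.14) were higher and the receptor gene Rara was at 0.10 and not called. Of 80 expressed Zfp zinc finger genes 29 were higher and 7 lower, 12 and 4 of them with every library left out, beside 19.4% higher and 20.5% lower among all expressed genes.

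The effect was set against that of BRM014, whose controls are separate. The difference of the 2 effects passed the test in 1274 genes in favour of Chd4 shRNA and in 1271 against it, 15.4% each and 30.8% in all, where BRM014 alone gave 258 higher (3.12%) and 383 lower (4.63%), 7.75% in all. By smallest p the differences were Bc1 (4.39, adjusted p 1.84e-10), Gfod2 (3.12), Crabp2 (3.68), Dqx1 (3.65) and Sfi1 (2.38) upward. Downward they were Spp1 (-2.55), Apela (-2.67), Insig1 (-2.32), Pim3 (-2.06) and Paics (-2.05). Gfod2 was higher with Chd4 shRNA and lower with BRM014 (-1.62), and Insig1, which restrains sterol synthesis, the reverse, at -0.69 ± 0.15 and 1.63. The sterol list as a whole had 0 higher genes here and 6 with BRM014. Fgf4 fell in both, to -1.76 with BRM014, and its difference of 0.33 missed the threshold (adjusted p 0.231). Hspa5 (difference 0.29, adjusted p 0.296), Hsp90b1 (0.41, adjusted p 0.138) and Ddit3 (-0.32, adjusted p 0.205) rose in both, and the differences missed the threshold.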

How the data were processed

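Nascent RNA was read from a matrix of gene counts and a matrix of ERCC counts; per the submitters' processing notes, the authors used Trim Galore 0.6.4, STAR 2.7.1a, featureCounts, edgeR 3.32.1 and mm10, and deposited raw counts per gene. The libraries came from a directional kit, but the strand setting of the counting is not given in the sources used here, so opposite-strand genes may share reads. The design text calls the libraries biological duplicates. Total gene counts ran from 6982354 to 12026026 in the 4 libraries, and depth limits precision in genes of few counts. The numbers r3 and r4 in the headers match no sample title, and groups were taken from the shRNA name.

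The expected background of a gene was the count per kb of the receptor genes times its exonic length. Genes of 10-fold that level or more, on average, were scaled by TMM and tested with edgeR 4.0.16 (quasi-likelihood, 8 libraries, group only) in R 4.3.3, with limma 3.58.1. P-values were adjusted by Benjamini-Hochberg over all 8272 genes, and calls made under 0.05. The SE is the fold change over the root of F and is approximate. A row with equal counts in both groups has a log2 fold change of 0.51 on this scale. The alternative tool was DESeq2 1.42.0, and Python 3.11.15 with pandas 2.3.3, numpy 2.4.6, scipy 1.17.1 and matplotlib 3.10.9 did the rest. The fits were tested on simulated data. Blocks, scales, filters and left-out libraries were tried as alternatives.

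The comparison, the gene lists and the tests were chosen with earlier results of these data known. Named genes were Chd4, the 15 largest rises and falls among called genes with at least 100 counts in every library of the higher group, no overlap and the same call after background subtraction (clone and predicted names left out), up to 4 called members per list and direction by smallest p, members on which a list's function turns, and the 5 smallest p per direction for the difference to BRM014. Satellite rows, Calr, Creld2, Dnajc3, Hnrnpa3, 1700122E12Rik, Canx, Pdia4, Pdia6, Gm42793 and Gm49346 were added after their values were seen. One gene of the elongation list is not reported here, and that list is counted without it.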

Additional observations from a re-analysis of the deposited data

How the results depend on the processing

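The 1607 higher and 1694 lower calls became 57 and 6 with TMM-scaled ERCC totals, 2836 and 62 with plain ERCC sums, 1414 and 59 with TMM over the 6 abundant ERCC RNAs, 2811 and 47 with the sum of the 3 most abundant ERCC RNAs (added after seeing the data), and 54 and 7554 with TMM over all tested genes. Limits of 3-fold and 30-fold over the background gave 3931 and 4019, and 891 and 828, the 10-fold limit in the 4 libraries alone 1141 and 1083, and a 2-fold change 326 and 282. Leaving out 1 library gave 1048 to 1455 higher and 1048 to 1351 lower. On the ERCC scale 21666 and 68 of all tested genes became 11493 and 11134 with TMM of the gene counts and 19298 and 623 with DESeq2, and 13247 to 17183 and 8 to 40 with 1 library left out. The difference to BRM014 had 727 to 1085 lower genes with 1 library left out. The ratio of gene counts per ERCC count was 1.34, but 1.01 with TMM-scaled totals, and the receptor ratio of 4.43 was 5.71 per count of expressed genes and 9.69 per ERCC count. The replicate block gave 1576 and 1671. The numbers did not pair the libraries (correlation 0.018 of the deviations), so no pairing was assumed, and the block changed no call among 107 named genes, nor did DESeq2. With TMM-scaled ERCC totals, however, 92 of the 107 lost their call, as did 38 to 40 on the other ERCC scales.

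With TMM over all tested genes these log2 fold changes reversed: Chd4 -0.77, L1td1 -0.86, Rif1 -0.83, Zfp281 -0.76, Stat3 -0.64, Fgfr1 -0.36, Gatad2a -0.81, Arid1a -0.45, Smarcc1 -0.53, Phf10 -0.62, Brd7 -0.67, Smarca5 -0.54, Ep400 -0.51, Chd2 -0.52, Cabin1 -0.47, H3f3b -0.54, Hspa5 -0.18, Hsp90b1 -0.22, Ddit3 -0.36, Herpud1 -0.40, Nupr1 -0.58, Psmb10 -0.39, Polr2a -0.28, Supt6 -0.21, Aff4 -0.21, Malat1 -0.27, Crabp1 -0.39, Calr -0.72, Creld2 -0.81 and Dnajc3 -0.26. With plain ERCC sums Mta2 was 0.0195 and Rbbp7 0.11, and with the 3 most abundant ERCC RNAs Mta2 was 0.0617, Rbbp7 0.16 and Ssrp1 0.0019. These scales differ by construction in what counts as no change. With 2 libraries a group, the p-values of the main fits rest on the spread within the groups of all 8 libraries, BRM014 and DMSO included.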

Other observations

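Other groups of expressed genes gave further values. Of 15 spliceosomal RNAs, the cores of the splicing machine, 7 were higher and 2 lower with Chd4 shRNA, beside 19.4% and 20.5% among all expressed genes. With BRM014 0 were higher and 13 lower, beside 3.12% and 4.63%. Rnu1b1 and Rnu1b2, both higher at 1.40, had nearly the same counts and their reads cannot be told apart. The 7 are thus not 7 separate RNAs. Of 78 mitochondrial ribosome genes 4 were higher and 22 lower, beside 19.4% and 20.5% among all expressed genes, and with the background subtracted the counts became 12 and 20. Of 22 translation factor genes 4 were higher and 11 lower.

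Genes of the cytoskeleton and of muscle moved both ways, with 4 of 9 expressed members higher and 3 lower. Besides Myl4, the atrial light chain gene Myl7 (1.38) and the calponin gene Cnn2 (1.16) were higher, while Vim, the filament of mesenchymal cells, was lower at 13.8 and 12.1 CPM against 20.3 and 24.3 (-0.78). Stmn2, a microtubule regulator of neurons, was at 60.8 and 70.5 CPM against 145 and 188 (-1.34).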
